A study of Homo sapiens with 6 samples.

Results

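The genes described are 10 components of the Notch pathway in MO3.13 cells: the receptors NOTCH1, NOTCH2 and NOTCH3, the ligands JAG1, JAG2 and DLL1, the target genes HES1, HEY1 and HEY2, and MFNG, an enzyme that modifies the receptors. They were chosen by name, and each was read from the probe set annotated with that symbol alone. On that rule 8 of the 10 were measured, out of 14232 genes so represented. NOTCH2 and DLL1 were not measured, because the 1 probe set that names each also names a second gene (NOTCH2NLA and LOC285804). None of the 8 differed between Klotho-treated and control cells past the adjusted threshold. For 7 of the 8 the 95% interval of the signal excluded a change of 1.5-fold or more, higher or lower. So did the intervals of 91.7% of all genes. For MFNG the interval ran slightly past 1.5-fold on the higher side.

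MO3.13 is a human line labelled as oligodendroglioma. As background, it was made as a hybrid of adult human oligodendrocytes and a rhabdomyosarcoma, so that it carries a muscle tumour partner. Control cells (3 arrays) and the cells later treated were alike described as growing in DMEM with 10% fetal bovine serum. Klotho-treated cells (3 arrays) had been given recombinant mouse Klotho, a circulating and membrane protein that acts as a co-receptor for FGF23, at 0.4 µg/mL in DMEM lacking serum for 3.5 h. Serum-free medium is named for the treated cells alone, and whether control cells were also moved to it is not given. Klotho and a possible loss of serum therefore cannot be told apart in any difference below. Nothing in the labels says that replicates are separate cultures, so the p-values reflect only how these 6 samples vary, and that variation may be technical.

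In Notch signalling, a Jagged or Delta-like ligand on one cell binds a Notch receptor on its neighbour. The bound receptor is cut by an ADAM protease and then by gamma-secretase, and the freed intracellular part enters the nucleus, where it joins the DNA-binding protein RBPJ and a Mastermind coactivator to switch on genes of the HES and HEY families. The HES and HEY proteins are repressors, and in the oligodendrocyte lineage Notch activity is known for holding precursors back from maturing. In muscle, it likewise keeps progenitor cells from differentiating. Fringe enzymes such as MFNG add a sugar to the receptor and change which ligands it answers.

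The targets are where signalling through this pathway is commonly read at the transcript level. The promoters of HES1 and HEY2 are shown because they hold the RBPJ core letters. Both are the 250 bases before the annotated start site, from RefSeq (GRCh38.p14), written 5′ to 3′ on the strand of the gene. HES1 lies at chr3:194135898-194136147 (plus strand) and HEY2 at chr6:125749382-125749631 (plus strand), and capitals mark TGGGAA or its reverse complement TTCCCA.
HES1: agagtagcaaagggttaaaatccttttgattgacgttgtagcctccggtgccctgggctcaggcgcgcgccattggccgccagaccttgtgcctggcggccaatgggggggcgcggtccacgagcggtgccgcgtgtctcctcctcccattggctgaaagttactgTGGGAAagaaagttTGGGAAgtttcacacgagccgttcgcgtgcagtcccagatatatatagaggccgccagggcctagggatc
HEY2: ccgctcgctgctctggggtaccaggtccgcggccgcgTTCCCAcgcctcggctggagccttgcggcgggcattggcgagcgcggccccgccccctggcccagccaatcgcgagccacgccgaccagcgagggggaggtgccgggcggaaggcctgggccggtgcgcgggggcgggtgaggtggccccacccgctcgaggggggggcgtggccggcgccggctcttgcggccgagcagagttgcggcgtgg
The HES1 window held the core 2 times, both in the direction of the gene, beginning 84 and 70 bases before the start site and so 14 bases apart. In the HEY2 window it occurred 1 time, on the opposite strand, 213 bases before the start. A further match in HEY2 begins 3 bases before the start site and crosses it, so it is not in the window shown. Of 35116 promoter windows of this length, 20.8% held the core on either strand and 2.9% held it 2 or more times. HES1 also held the N-box letters CACNAG, to which HES proteins bind, at 165 (on the opposite strand), 132 and 58 bases before the start, and no N-box match overlapped an RBPJ core. N-box letters were present in 32% of all windows. Among the 7 members with a window (HEY1, DLL1 and MFNG were not analysed here), HES1 and HEY2 were the 2 with an RBPJ core, and HES1 and NOTCH3 the 2 with an N-box. N-box matches that cross the start site, and so leave the window, begin 1 base before it in NOTCH1 and 4 bases before it in NOTCH2. A match describes letters and not binding, which was not measured.

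Each array gave 22011 log2 values, with array medians between 6.36 and 6.47. The 6 arrays did not spread evenly: a single principal component held 33.8% of the variance, with control array 1 highest, Klotho array 3 next and Klotho array 1 lowest. That order crosses the 2 groups. Of 8 markers of oligodendrocyte precursors 6 were measured, and 0 of them read above the median of all probe sets (6.40). Of 8 mature oligodendrocyte markers 6 were measured and 2 (CNP and CLDN11) read above it, whereas MOG and UGT8 were below the lower quartile (4.70). Skeletal muscle markers read above the median in 4 of 6 measured (DES, MYOD1, MYOG and CHRNA1), whereas MYF6 was below it and MYF5 below the lower quartile. Probe sets bind with different efficiency and no detection calls were used, so these positions are rough. Summed over the 6 muscle markers, the signal was 46.6 to 47.0 on control arrays and 46.4 to 46.8 on Klotho arrays. Within that list DES, the muscle intermediate filament gene, differed by -0.27 (95% interval -0.47 to -0.06). Its groups did not overlap as deposited, but did once the arrays were centred on their medians. DES was the 1 marker of the 6 at an unadjusted p under 0.05, and no marker of the other lists was. Among all genes, 2.07% had such a p and 7.89% had groups that did not overlap. DES did not pass in limma (adjusted p = 0.998). The 6 endothelial markers, from a cell type rich in Notch components, summed to 31.59 to 31.72 on control and 31.74 to 31.96 on Klotho arrays. In that sum every Klotho array was above every control array. The ranges of the 2 groups overlapped for the sums of all other marker lists, and this list was singled out after its values were seen. Of its 6 markers, 2 read above the median of all probe sets and 2 below the lower quartile. Gene by gene, the groups overlapped for all 6, and 0 had an unadjusted p under 0.05. TEK (-0.13) and VWF (-0.01) were lower in treated cells and the rest of that list higher. Whether any of these marker values bears on the Notch values was not tested.

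Among all 22011 probe sets, 0% (0 probe sets) passed an adjusted p of 0.05 in limma, so 0 of the 8 members passing is also the background. At an unadjusted p under 0.05 there were 0 members, against 2.07% of the 14232 genes. As deposited, control and treated values did not overlap for 1 of the 8 members (NOTCH1), against 7.89% of all genes. The adjusted p was 0.998 for each of the 8.

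Both measured receptors had somewhat lower means in treated cells, with intervals that included 0. NOTCH1, a transmembrane receptor found in many tissues, read 6.86, 6.79 and 6.80 on control arrays 1 to 3 and 6.65, 6.74 and 6.71 on Klotho arrays 1 to 3 (log2 signal). As deposited, every treated array was below every control array. The means were 6.82 ± 0.04 and 6.70 ± 0.05 (SD, n = 3), which differ by -0.12. The 95% interval ran from -0.29 to 0.06, or 0.82 to 1.04 as a ratio of treated over control. NOTCH3, the receptor best known from smooth muscle of blood vessels, read 7.61, 7.58 and 7.45 in control and 7.34, 7.49 and 7.35 in treated cells. The groups overlapped, with treated array 2 above control array 3. NOTCH3 averaged 7.55 ± 0.08 and 7.39 ± 0.08 (SD, n = 3) and differed by -0.15 (95% interval -0.36 to 0.05). With each array centred on its median, the differences became -0.07 for NOTCH1 and -0.11 for NOTCH3. The NOTCH1 groups then overlapped, with treated array 2 just above control array 3.

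**Figure D1:**
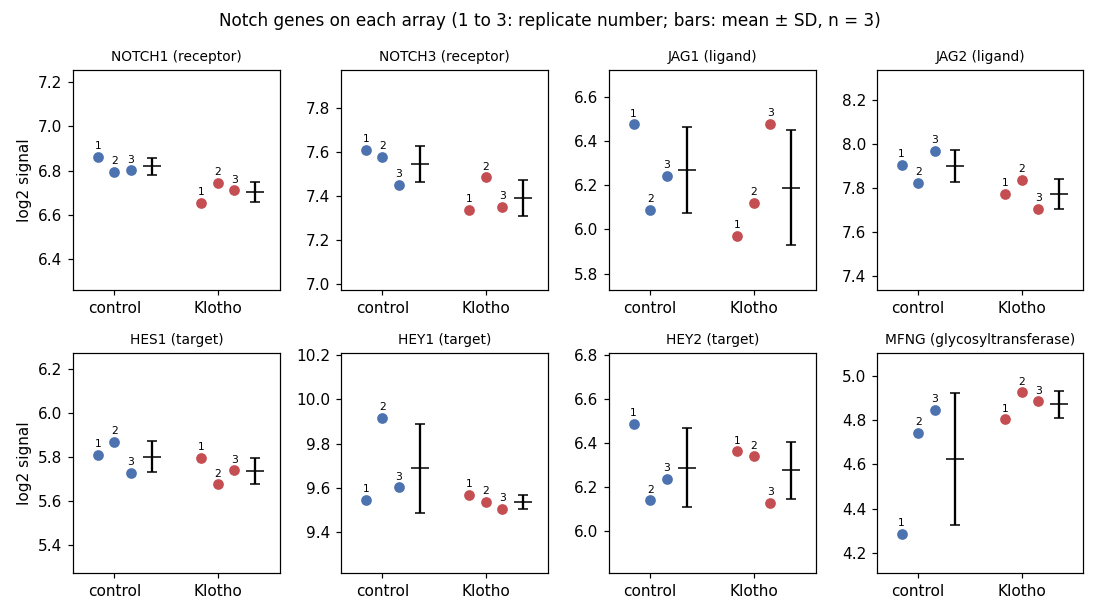
Log2 signal of each measured gene (vertical axis, each panel spanning 1 log2 unit) on the 3 control (blue) and 3 Klotho (red) arrays, numbered by replicate, with the mean and SD of each group in black. NOTCH1 is the gene whose groups do not overlap on these deposited values. JAG1 has 1 high array in each group, and MFNG is set apart by control array 1 at 4.28.

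Of the ligands, JAG2 varied little and JAG1 varied widely. JAG2, the second Jagged ligand, read 7.90, 7.82 and 7.97 on the control arrays and 7.77, 7.84 and 7.70 on the treated arrays. The lowest control value was just under the highest treated one. Its means were 7.90 ± 0.07 and 7.77 ± 0.07 (SD, n = 3), a difference of -0.13 (95% interval -0.32 to 0.07). JAG1, the ligand gene mutated in Alagille syndrome, read 6.48, 6.09 and 6.24 in control and 5.97, 6.12 and 6.48 in treated cells. Control array 1 and Klotho array 3 were its highest values and Klotho array 1 its lowest, which are also the arrays at the ends of that principal component. Its part in the JAG1 values was not tested. JAG1 means were 6.27 ± 0.20 and 6.19 ± 0.26 (SD, n = 3), and the difference of -0.08 had a 95% interval of -0.47 to 0.31. Its sign turned without control array 1 (0.02) or without Klotho array 1 (0.03), and without Klotho array 3 the difference was -0.22.

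The target genes are commonly used as a transcriptional readout of the pathway, and all 3 listed were measured. Whether they follow Notch activity in these cells was not tested. HES1, the repressor whose promoter is printed above, read 5.81, 5.87 and 5.73 on the control arrays and 5.80, 5.68 and 5.74 on the treated arrays. All 6 values lay within 0.19 of each other, the smallest range among the 8 members, and the groups overlapped. Its mean was 5.80 ± 0.07 in control and 5.74 ± 0.06 in treated cells (SD, n = 3). The difference of -0.06 had a 95% interval of -0.26 to 0.13, which as a ratio is 0.84 to 1.09. It was -0.03 without control array 2 or without Klotho array 2, -0.10 without control array 3, and -0.02 with each array centred on its median.

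HEY1, a HES-related repressor, read 9.54, 9.92 and 9.60 in control and 9.57, 9.54 and 9.50 in treated cells. Control array 2 stood above the other 5 arrays. The means were 9.69 ± 0.20 and 9.54 ± 0.03 (SD, n = 3), with a difference of -0.15 (95% interval -0.43 to 0.13) that was -0.04 without control array 2. HEY2, known for its part in heart and vessel formation, read 6.49, 6.14 and 6.24 in control and 6.36, 6.34 and 6.13 in treated cells. Its groups were interleaved. The means were 6.29 ± 0.18 and 6.28 ± 0.13 (SD, n = 3) and the difference -0.01 (95% interval -0.30 to 0.28), which was positive, at 0.02 to 0.04, under each of 3 other scalings of the arrays. Without control array 1 it was 0.09, and without Klotho array 3 it was 0.06.

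MFNG, the Manic Fringe enzyme, was the 1 member with a higher mean in treated cells. It read 4.28, 4.74 and 4.85 on the control arrays and 4.80, 4.93 and 4.89 on the treated arrays. Control array 1 was the lowest of the 6, and control array 3 lay above Klotho array 1. The means were 4.63 ± 0.30 and 4.87 ± 0.06 (SD, n = 3), which differ by 0.25. Its 95% interval ran from -0.13 to 0.62, or 0.92 to 1.54 as a ratio. Without control array 1 the difference was 0.08. MFNG was also the dimmest member, with 25.6% of all probe sets below it, so that a bound on its signal need not bound its transcript. For the other 7 members that share ran from 40.1% (HES1) to 90.6% (HEY1). HES1 (5.77), JAG1 (6.23) and HEY2 (6.28) also averaged below the median of all probe sets (6.40). The same limit may hold for their intervals.

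**Figure D2:**
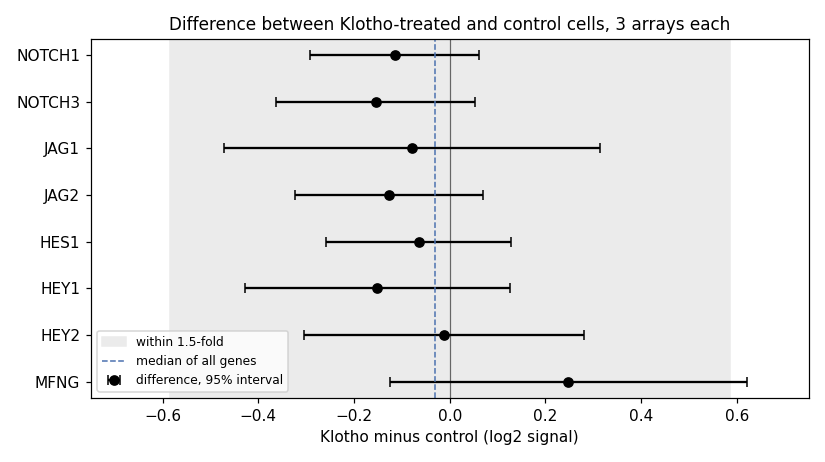
Difference between Klotho-treated and control cells in log2 signal (horizontal axis) for the 8 measured genes, with 95% intervals from limma, 3 arrays per group. The grey band is a 1.5-fold change in either direction and the dashed line the median of all genes (-0.03). All 8 intervals include 0, and only that of MFNG leaves the band.

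As deposited, 7 of the 8 members had a lower mean in treated cells and the median difference was -0.10. The same direction held for 62.6% of all genes, with a median of -0.03. The split moved with the scaling. With each array centred on its median, 6 of the 8 members were lower with a median of -0.05, against 42.7% of all genes with a median of 0.02. With quantile normalization and with cyclic loess, 6 of 8 were lower too, against 46.8% and 50.3% of all genes. By array, the mean of the 8 members relative to their own means was 0.03, 0.03 and 0.02 on control arrays 1 to 3 and -0.06, -0.005 and -0.03 on Klotho arrays 1 to 3, so the groups did not overlap as deposited. Once the arrays were centred on their medians, control array 1 and Klotho array 3 were the 2 lowest (-0.04 and -0.03) and control array 2 the highest (0.05). The 2 groups were interleaved in that order.

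**Figure D3:**
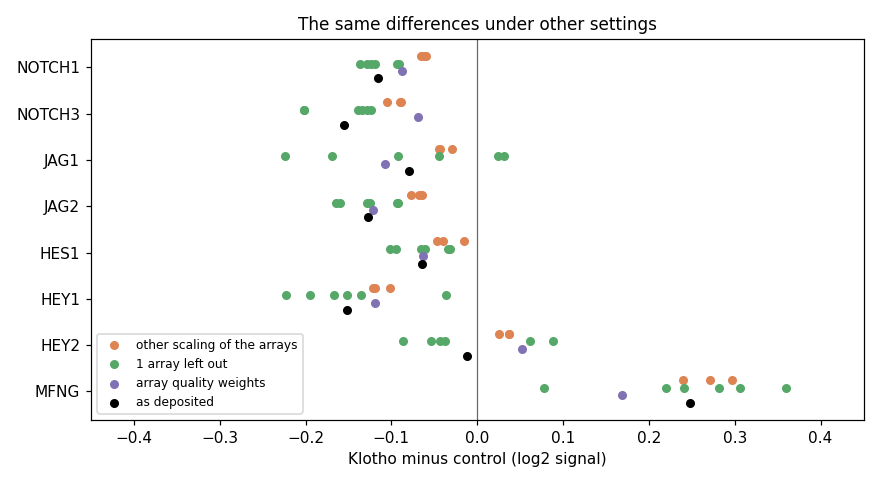
The difference of each gene in log2 signal (horizontal axis) as deposited (black), under 3 other scalings (orange), with each of the 6 arrays left out (green) and with array quality weights (purple). JAG1 and HEY2 are the genes with points on both sides of 0, and MFNG stays above 0 with values from 0.08 to 0.36.

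The rest of the pathway was described with a list of 74 genes, of which 54 were measured by the same rule. None passed the adjusted threshold in limma, 1 (1.85%) had an unadjusted p under 0.05, against 2.07% of all genes, and the groups did not overlap for 6 (11.1%), against 7.89% of all genes. As deposited, 41 (75.9%) were lower and 13 higher in treated cells (median -0.05), against 62.6% of all genes lower. With the arrays centred on their medians, 29 were lower and 25 higher (median -0.01), against 42.7% of all genes lower. The intervals of 51 of the 54 (94.4%) lay within a 1.5-fold change, as did those of 91.7% of all genes and of 7 of the 8 members (87.5%).

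By role, the other ligands (6 measured) had a median difference of 0.04. CNTN1, a contactin described as a Notch ligand on axons, read 2.47 ± 0.07 in control and 2.57 ± 0.05 in treated cells (SD, n = 3). Its probe set was dim and its groups did not overlap. Sugar-transferring enzymes other than MFNG (6 measured) had a median of -0.03. The ubiquitin ligases that act on ligands (3 measured) included NEURL1, at 6.00 ± 0.12 and 6.18 ± 0.06, a difference of 0.18 (95% interval -0.04 to 0.40). Of the proteases, 5 of 9 were measured, all within 0.09 of 0. NCSTN, the nicastrin subunit of gamma-secretase, read 7.74 ± 0.04 and 7.66 ± 0.07.

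Regulators of receptor turnover (8 measured) held the 1 gene with an unadjusted p under 0.05, DTX3, of the Deltex family of ubiquitin ligases. DTX3 read 7.01 ± 0.13 in control and 6.78 ± 0.08 in treated cells (SD, n = 3), which differ by -0.23, and its groups did not overlap. The lower bound of its interval was -0.46, the upper bound lay just below 0, and limma gave an adjusted p = 0.998. NUMBL, related to the Notch inhibitor NUMB, differed by -0.17, NUMB itself by -0.12, and the Deltex gene DTX1 by 0.12. The NUMBL groups did not overlap as deposited, but did once the arrays were centred on their medians. In the nuclear activation complex (9 measured, median -0.09), RBPJ read 8.52 ± 0.03 and 8.48 ± 0.11, and the coactivator gene MAML1 7.76 ± 0.04 and 7.78 ± 0.01. The 12 measured corepressors and their partners had a median of -0.06. Of the remaining HES and HEY genes, 5 of 8 were measured. HES2 differed by -0.39 (95% interval -0.90 to 0.12), with an SD of 0.43 among the treated arrays and a probe set below the lower quartile. NRARP, a feedback inhibitor, was not measured here.

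**Figure D4:**
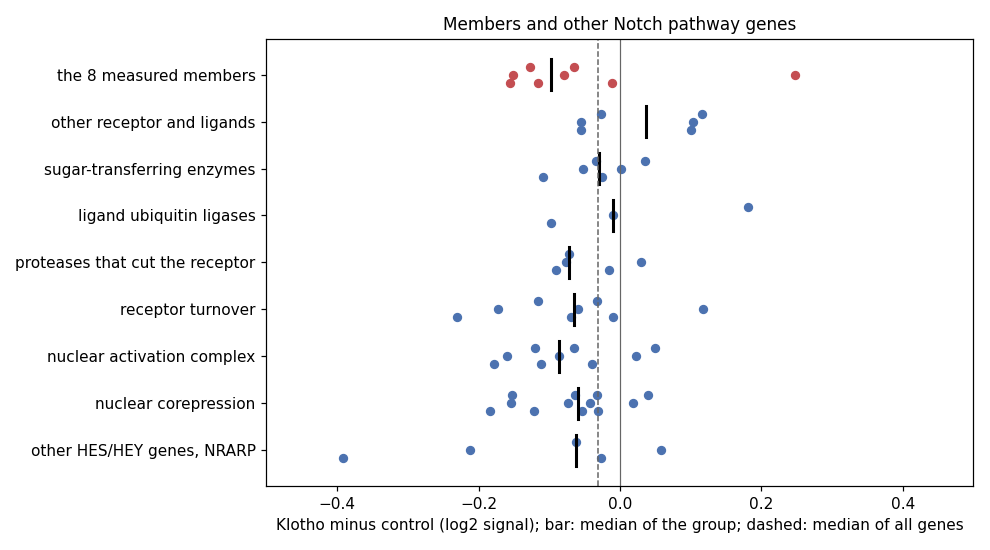
Difference between Klotho-treated and control cells in log2 signal (horizontal axis) for the 8 members (red) and for 54 other pathway genes by role (blue), with the median of each group as a bar and the median of all genes (-0.03) dashed. No gene in the plot passed the adjusted threshold, and the point farthest from 0 is HES2 at -0.39.

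The genes most like HES1 and NOTCH3 over the 6 arrays were found by the root mean square difference between the log2 deviations of each gene from its own mean. For HES1 these were PTPRR, HFE and TNIP3 (0.02 each), against a median of 0.13 over 14231 genes. For NOTCH3 they were MRC2, DCLK2 and PLSCR3 (0.02 each), against a median of 0.15. HES1 itself deviated by 0.06 (root mean square), which is the distance a flat gene would have from it. NOTCH3 deviated by 0.10. The named genes are the closest of 14231 over only 6 arrays, and whether their likeness has a meaning was not tested.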

How the data were processed

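Total RNA (100 ng) from 3 control and 3 Klotho-treated samples of MO3.13 was amplified and biotin-labelled, per the labels' protocols. The authors deposited log2 values, 1 per probe set and array, and the submitters' processing notes name RMA without a version. Software, annotation and filters were not given in the sources used here. Arrays carry no read depth, and their number limits the precision.

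Of 22011 probe sets, 14432 name 1 gene symbol, 2408 several and 5171 none. The probe set with the highest mean stood for a gene, and each measured member had 1 of its own. By Entrez number, 14205 of 14232 genes matched RefSeq. All probe sets were fitted with limma 3.58.1 in R 4.3.3 (lmFit, eBayes, 2-sided), with Benjamini-Hochberg adjustment over all of them and a threshold of 0.05. The fit was tested on simulated data. Intervals use the moderated variance.

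The members and the lists were chosen with earlier results of these data known. Besides the members, the text names the 3 pathway genes of smallest p in each direction, NRARP, RBPJ, MAML1, NCSTN and NUMB, and the genes most like HES1 and NOTCH3. Markers and single arrays named beside a result were picked after their values were seen. Alternatives were 3 scalings, a filter on dim probe sets, the gene probe sets alone, 2 variance models, array weights, the replicate number as a block, gene means over probe sets, and leaving out each array.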

Additional observations from a re-analysis of the deposited data

How the results depend on the processing

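The count of members, of pathway genes and of all probe sets past the adjusted threshold was 0 in each of the 16 alternatives (those over all probe sets in 15, since gene means do not apply to them). The smallest adjusted p over all probe sets was 0.343 as deposited, 0.0932 without control array 3 and 0.0962 with array quality weights. At an unadjusted p under 0.05 there were 703 probe sets as deposited, 1644 with array quality weights, 1200 without Klotho array 3, 436 with dim probe sets (below the lower quartile) removed and 438 with the gene probe sets alone. The last pair tested fewer probe sets. On the same 14232 gene probe sets, however, the fit over all probe sets gave 295 such calls, fewer than the 438 of the refit. For the array weights and Klotho array 3, the cause was not tested. The split of those calls was 292 higher and 411 lower as deposited, and 510 and 253 with the arrays centred on their medians. With the replicate block there were 662, and 0 passed. Same-numbered arrays deviated from their group means with correlations of -0.18, 0.06 and -0.14, and differently numbered ones with -0.13 to 0.24. With 3 arrays per group, these values cannot settle whether same-numbered samples were handled together. At an unadjusted p under 0.05 there were 0 members in every one of the 16. JAG1 changed sign in 2 and HEY2 in 6 of the 16 alternatives, and the other 6 members in none. Signal over background was not at hand, which limits what the dim MFNG, HES2 and CNTN1 probe sets can show. It may also limit HES1, JAG1 and HEY2, which averaged below the median of all probe sets.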
